A study of Mus musculus with 24 samples.

Results

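The comparison set CPT1a knockout spheroids given acetate against spheroids carrying a scramble guide, and asked at which promoters H3K9ac still differed from scramble although acetate had been supplied. Its members were the 3 H3K9ac libraries labelled as CPT1a knockout with acetate and the 3 labelled as scramble, 6 of the 24 samples of the series. The 3 CPT1a knockout libraries without acetate, grown with 75 µM palmitate, stand beside them as a description. The cells were 4T1, a mouse mammary carcinoma line, grown as three-dimensional spheroids and collected on day 5, and H3K9ac was mapped by ChIPmentation, in which Tn5 transposase tags the chromatin while it is bound to the antibody beads. Scramble spheroids expressed a non-targeting guide and were kept in medium with 75 µM palmitate. CPT1a knockout spheroids of the acetate group received 5 mM acetate, and the labels do not say whether their medium also held palmitate. The paper describes H3K9 acetylation after loss of CPT1a, with or without acetate, in palmitate-containing medium. Genotype, acetate and, if there was one, a difference in palmitate cannot be told apart. The knockouts were made with an inducible Cas9 in stable lines selected with puromycin, and the labels do not give the guide used for a library. The labels do not say that replicates came from separate cultures, so p-values measure the spread between these samples only.

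Acetylation of lysine 9 on histone H3 marks the nucleosomes that flank active start sites, and the acetyl group comes from acetyl-CoA. CPT1a lets long-chain fatty acids such as palmitate enter mitochondria, where β-oxidation cuts them into acetyl-CoA. Acetate can reach the same pool through the acyl-CoA synthetase ACSS2, which works in the cytosol and nucleus and does not need CPT1a, and citrate does so through ATP-citrate lyase. KAT2a, the catalytic subunit of the SAGA and ATAC complexes, is one of the enzymes that acetylate H3K9.

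Scramble lists held 29176 to 34370 peaks and acetate lists 22368 to 24639. Calling depth, the genome-wide average of fragment pileup on which the caller worked, was 2.52, 1.87 and 1.90 in scramble replicates 1, 2 and 3 and 1.45, 0.660 and 1.91 in acetate replicates 1, 2 and 3. All 10 markers of mammary carcinoma cells examined, among them Epcam, Krt8 and Krt18, had a promoter peak in all 6 libraries, and 11 of 13 markers of other lineages, which include Ptprc and Pecam1, had none in any of the 6. The exceptions were Gfap, called in 2 scramble libraries, and Sftpc, called in 2 scramble libraries and 1 acetate library. Of 20 genes in a list of mammary carcinoma identity used below, 13 had a promoter peak in all 6 libraries and 7 had none in any. Spearman correlations of promoter ranks between libraries lay between 0.782 and 0.841 within groups and between 0.639 and 0.750 across groups.

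A promoter was the stretch within 1 kb of any transcription start site of a protein-coding gene, and it was called if a peak overlapped it. Promoters of 11401, 11227 and 11150 of 21755 genes were called in scramble, and of 11338, 11173 and 11458 in acetate. The groups overlapped, and the difference of means was 63.7 genes (two-sided exact permutation test, p = 0.6, n = 3 per group, smallest possible p 0.1). The number of peaks at a promoter separated the 2 groups. Called promoters held 1.57, 1.68 and 1.73 peaks in scramble and 1.33, 1.46 and 1.33 in acetate (exact permutation p = 0.1, p = 0.183 after adjustment over 11 measures per library). Among the 10909 genes called in all 6 libraries, 43.6%, 53.1% and 55.3% carried 2 or more promoter peaks in scramble against 26.8%, 37.0% and 26.8% in acetate. With all lists brought to the same calling depth, the peaks per called promoter were 1.35 ± 0.0945 in scramble and 1.28 ± 0.139 in acetate (SD, n = 3 each, exact permutation p = 0.5), and the groups overlapped. At equal depth the acetate lists called 430.7 more genes than scramble, without overlap (exact permutation p = 0.1, n = 3 each).

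Of the 11714 genes called in any of the 6 libraries, 46 (0.393%) were called in 3 of 3 acetate libraries and in no scramble library, and 29 (0.248%) showed the opposite pattern. These calls were counted and not tested. The counts were 185 and 12 at equal calling depth and 115 and 15 with lists of equal length. Both settings only remove peaks, and more of them from the longer scramble lists, so part of that shift follows from the removal. A gene keeps its pattern whenever its own peaks survive, because no call can be added in the other group. Peaks of the 46 genes had a median fold enrichment over the local background of 5.9998, against library medians of 22.9 to 26.0 for promoters called in all 6 libraries, so they were weak peaks. An uncalled promoter may carry H3K9ac below the threshold of the caller. Scramble, the group without these peaks, was the group with the higher mean calling depth, 2.10 against 1.34.

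Camk4 and Camk2n1 had the highest percentiles of the acetate-only promoters. Camk4, a calcium- and calmodulin-dependent kinase, had a promoter peak with a fold enrichment of 11.8, 11.4 and 6.19 in acetate replicates 1, 2 and 3. The promoter of Camk2n1, which encodes an inhibitor of the kinase CaMKII, reached 8.34, 7.80 and 10.2. Both genes were also called in 3 of 3 CPT1a knockout libraries without acetate. At Inhbb, the βB subunit of activins and inhibins, the peak at chr1:119421327-119422296 (mm10, acetate replicate 1) covered a start site of the gene, and fold enrichments were 7.76, 8.00 and 9.11. Scrt1, a Snail-family repressor known from neurons, was enriched 7.36-, 9.97- and 6.72-fold, with its summit 1107 bp from the nearest start site. Inpp5j, a phosphoinositide 5-phosphatase, was enriched 7.07-, 7.41- and 7.86-fold, and Mamstr, a coactivator of MEF2 factors, 7.19-, 7.24- and 8.67-fold. Tpm3-rs7 and Eif3j2 also met the rule, but they are copies of the widely used genes Tpm3 and Eif3j1, so reads could have been placed at the wrong copy. The peaks of both were narrow. All 8 genes remained acetate-only at equal calling depth and with lists of equal length, which shows only that their acetate peaks survived the removal of weak peaks. Mamstr and Scrt1 were lost with windows of 0.5 kb or a required overlap of 200 bp.

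The remaining acetate-only genes, named here after their calls were seen, included Decr1, a reductase that β-oxidation of unsaturated fatty acids needs, with fold enrichments of 6.52, 6.02 and 8.81. Decr1 was the only one of 31 genes of the carnitine shuttle and β-oxidation with such a call. Cd40, a receptor of the TNF receptor family, was enriched 7.13-, 6.06- and 8.25-fold, and the interferon-induced Cmpk2 7.90-, 4.82- and 11.1-fold. Epsti1, also induced by interferon, was enriched 5.70-, 6.79- and 9.28-fold. The class I-like gene H2-Q2 has close paralogs, so its call is uncertain. Ovol2, a repressor that keeps cells epithelial, was enriched 5.09-, 4.66- and 4.20-fold, and S100a14 and the envoplakin gene Evpl, both expressed in epithelia, reached 5.17, 5.33 and 3.89 and 4.70, 4.92 and 4.00. Decr1, Cd40 and Cmpk2 remained acetate-only at equal calling depth, and Epsti1, H2-Q2, Ovol2, S100a14 and Evpl did not. Of all 46 genes, 20 were called in 3 of 3 CPT1a knockout libraries without acetate, 23 in 2 and 3 in 1. CPT1a knockout replicate 3 had a calling depth of 0.554, the lowest of the 12 libraries.

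Among the named promoters called in scramble only, Glyctk, which encodes glycerate kinase, stood highest, with fold enrichments of 24.3, 16.7 and 20.2, but its summit lay 2301 bp from the nearest Glyctk start site. Cadps2, a factor of dense-core vesicle release, was enriched 10.3-, 9.75- and 9.57-fold in scramble. Rasef, an atypical Rab-like GTPase, was enriched 9.84-, 9.40- and 6.76-fold. Bscl2, the gene of the lipid droplet protein seipin, shared its peak with Gng3 and was enriched 7.89-, 4.60- and 8.06-fold. These 4 genes remained scramble-only at equal calling depth and the other named genes did not, whereas with lists of equal length Bscl2 and Gpc4 were lost, and with windows of 0.5 kb Glyctk and Gpc4. The other named genes were Mest, an imprinted gene, with 6.41, 5.65 and 6.06, the homeobox gene Dmbx1 with 7.50, 6.002 and 4.94, the glypican gene Gpc4 with 6.23, 6.62 and 4.83, and Adm, which encodes the hypoxia-induced peptide adrenomedullin, with 6.27, 5.05 and 5.54. Others, named after their calls were seen, were P4ha2, a collagen prolyl hydroxylase (4.24, 4.62 and 3.88), Itgb6, the β6 integrin subunit (6.36, 4.79 and 5.02), and Il24, a cytokine of the interleukin 10 family (6.01, 5.13 and 4.96). P4ha2, Itgb6 and Il24 did not remain scramble-only at equal calling depth. Without acetate, 15 of the 29 genes had no call in any CPT1a knockout library, 8 had a call in 1, 6 in 2 and 0 in 3.

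**Figure D1:**
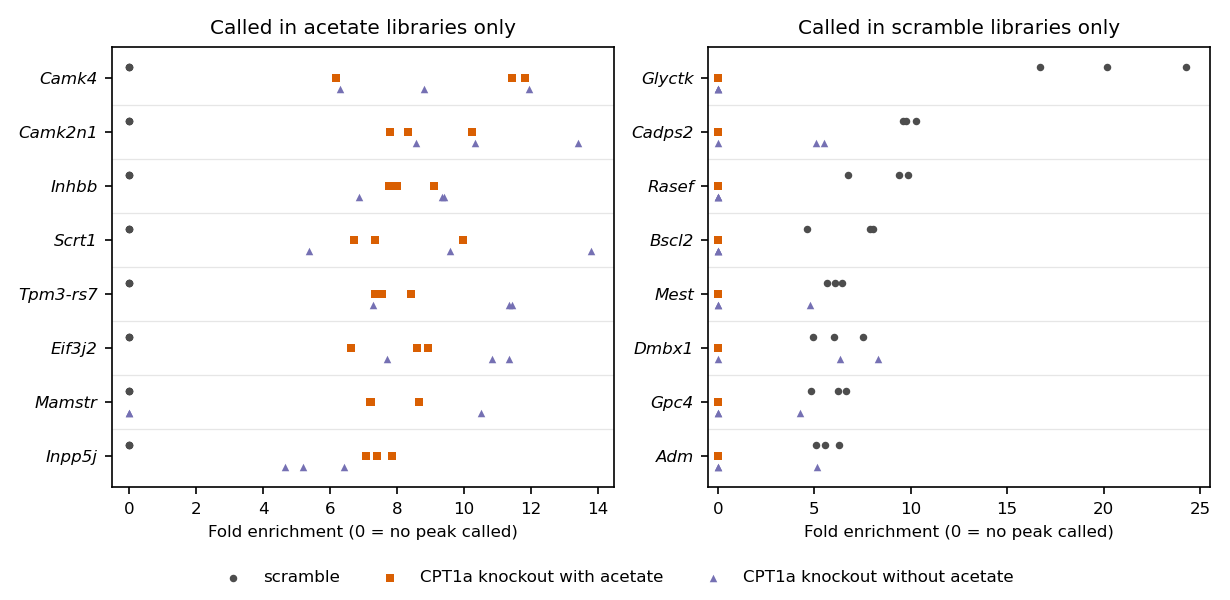
Fold enrichment of the strongest promoter peak (horizontal axis) of the 8 named genes called in the acetate libraries only (left) and in the scramble libraries only (right). Each point is 1 library, 3 per group (scramble dark grey, acetate orange, CPT1a knockout without acetate violet), drawn at 0 where no peak was called, and the Glyctk peaks, at 16.7 to 24.3, lie to the right of all others.

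Fold enrichments were not scaled between libraries, so promoters called in all 6 libraries were compared by rank. Each of the 10909 genes was given the percentile of its strongest promoter peak among these genes in its library, from 0 for the weakest to 100.0 for the strongest, and normal scores of the ranks were tested with limma. At an adjusted p below 0.05, 717 genes (6.57%) differed between acetate and scramble, 273 (2.50%) with a higher and 444 (4.07%) with a lower rank in acetate. The unadjusted p was below 0.05 for 2865 genes (26.3%), and the 2 groups of ranks did not overlap for 3487 genes (32.0%). The median change of the 273 genes was 38.4 percentile points and that of the 444 genes -36.8, against 0.144 for all genes tested. Ranked by −log10 p, 3153 genes passed, 1570 higher and 1583 lower, and with fold enrichment rescaled to equal calling depth 1542, 707 higher and 835 lower. How many genes passed depended on single libraries: 37, 466 and 1 genes did so without scramble replicate 1, 2 and 3, and 1, 0 and 1 without acetate replicate 1, 2 and 3. In each of these 6 fits all 717 genes kept their direction and an unadjusted p below 0.05. With 0 calls left, 2369 genes (21.6%) had an unadjusted p below 0.05.

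**Figure D2:**
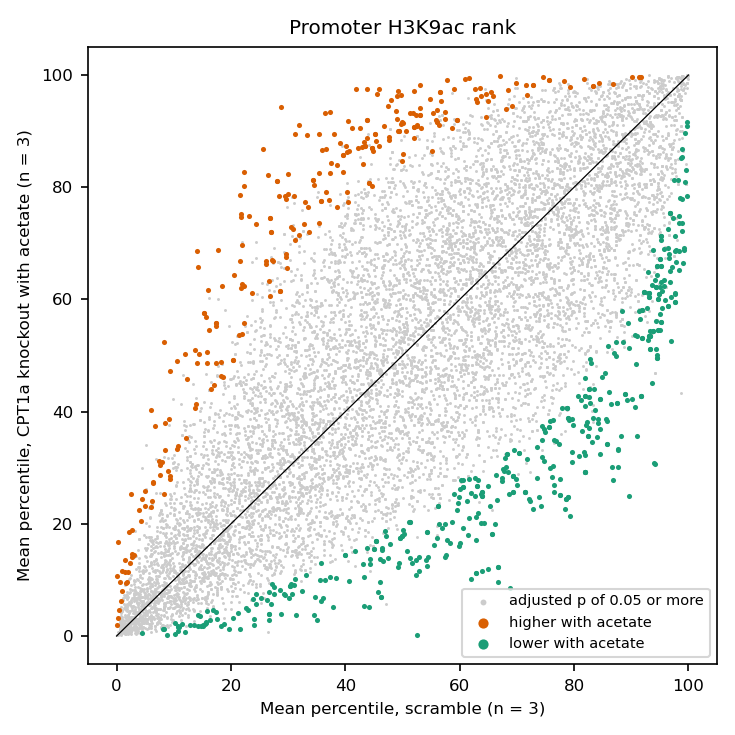
Mean within-library percentile of the strongest promoter peak of each of 10909 genes in scramble (horizontal axis) and in CPT1a knockout with acetate (vertical axis), 3 libraries each. Orange points are the 273 genes ranked higher and green points the 444 ranked lower with acetate at a limma adjusted p below 0.05, grey points are the other genes, and the line marks equal percentiles.

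The median GC content of the promoter windows was 53.3% for genes ranked higher, 46.5% for genes ranked lower and 50.3% for all genes tested. In the decile of lowest GC, 9.81% of genes ranked lower and 1.10% ranked higher, and in the decile of highest GC 1.56% ranked lower and 5.50% higher. With the GC trend removed from each library, 422 genes passed, 176 higher and 246 lower, and 362 of them were among the 717. In the RefSeq promoter sequences, which run from 250 bases before to 50 after a start site and matched 8621 of the 10909 genes, the GC box GGGCGG was present on either strand in 76.4% of genes ranked higher, 57.1% of genes ranked lower and 69.4% of all genes tested. CCAAT was found in 34.0%, 42.9% and 38.7%. A match to the NF-kB consensus occurred in 17.0%, 11.1% and 12.8%, and the ETS motif CCGGAAG in 15.6%, 17.7% and 21.2%. Over all 32851 promoter sequences these shares were 35.7% for GGGCGG, 37.4% for CCAAT, 9.38% for NF-kB and 8.86% for CCGGAAG. The AP-1 motif TGANTCA was held by 2.36%, 4.80% and 4.21% of the same 3 sets and by 7.81% of all promoters, the E-box CACGTG by 8.02%, 9.91% and 10.5%, against 7.15%, and TATAAA by 5.19%, 7.81% and 5.89%, against 13.6%. A match describes the letters only.

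**Figure D3:**
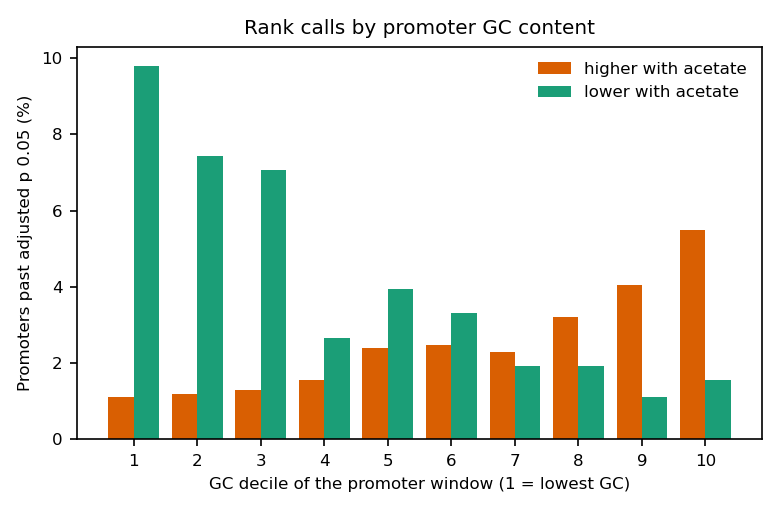
Share of genes in each GC decile of the promoter window (horizontal axis, 1 lowest) that ranked higher (orange) or lower (green) with acetate at a limma adjusted p below 0.05 (vertical axis, percent). Lower ranks fall from 9.81% in decile 1 to 1.56% in decile 10, and higher ranks go from 1.10% to 5.50%.

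To show this range, the 250 bases before the start site are given for Inhbb, called with acetate only, for Kat2a and Osmr, ranked higher with acetate, and for Acss2 and Cp, ranked lower (RefSeq, GRCm38.p6, 5′ to 3′ on the strand of the gene). Capitals mark CpG dinucleotides, of which Inhbb held 21, Kat2a 11, Osmr 18, Acss2 13 and Cp 2. The positions are chr1:119422249-119422498 (minus strand) for Inhbb, chr11:100712468-100712717 (minus) for Kat2a, chr15:6874314-6874563 (minus) for Osmr, chr2:155517793-155518042 (plus) for Acss2 and chr3:19956999-19957248 (plus) for Cp.
Inhbb: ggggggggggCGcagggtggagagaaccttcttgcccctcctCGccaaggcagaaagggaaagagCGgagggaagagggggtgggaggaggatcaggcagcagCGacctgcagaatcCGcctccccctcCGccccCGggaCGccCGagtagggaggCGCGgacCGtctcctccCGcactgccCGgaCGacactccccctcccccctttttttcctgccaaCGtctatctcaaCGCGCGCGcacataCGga
Kat2a: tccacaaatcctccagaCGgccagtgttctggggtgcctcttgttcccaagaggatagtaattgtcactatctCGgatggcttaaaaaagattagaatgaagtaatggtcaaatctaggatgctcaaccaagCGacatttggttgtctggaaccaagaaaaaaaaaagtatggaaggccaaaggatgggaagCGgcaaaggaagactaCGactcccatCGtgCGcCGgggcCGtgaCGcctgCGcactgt
Osmr: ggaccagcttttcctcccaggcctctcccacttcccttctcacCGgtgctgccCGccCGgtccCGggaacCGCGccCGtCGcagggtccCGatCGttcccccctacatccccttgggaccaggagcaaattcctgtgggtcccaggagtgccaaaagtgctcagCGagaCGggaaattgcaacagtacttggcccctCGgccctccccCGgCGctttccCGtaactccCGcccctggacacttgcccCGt
Acss2: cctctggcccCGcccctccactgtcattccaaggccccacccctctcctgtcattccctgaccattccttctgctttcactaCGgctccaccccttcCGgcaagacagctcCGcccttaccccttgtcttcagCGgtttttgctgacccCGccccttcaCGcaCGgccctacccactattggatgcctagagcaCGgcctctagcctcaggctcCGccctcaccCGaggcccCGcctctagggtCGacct
Cp: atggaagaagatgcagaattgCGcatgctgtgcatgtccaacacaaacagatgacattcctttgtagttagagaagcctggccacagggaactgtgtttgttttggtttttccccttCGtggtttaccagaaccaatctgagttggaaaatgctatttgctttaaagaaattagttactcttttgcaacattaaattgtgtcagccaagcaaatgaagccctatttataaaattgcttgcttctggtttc

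Most of the 10 named genes that ranked higher with acetate lay near the top of the acetate lists. Named genes of both directions were picked by the largest normal-score difference, a scale that stretches the ends of the ranking. The rule also required groups without overlap, so end positions and separate groups follow in part from it. Gtf2i, which encodes the transcription factor TFII-I, lay at percentiles 25.8, 86.4 and 89.2 in scramble replicates 1, 2 and 3 and at 99.99, 99.92 and 99.85 in acetate, a difference of 2.69 ± 0.48 normal-score units (SE, limma adjusted p = 0.0231). Scramble replicate 1 stood far below the other scramble libraries in percentile for this gene. Its fold enrichment, a ratio to the local background, was 13.7. Its summit pileup of 122.5, not scaled between libraries, was the highest among the scramble libraries, and so was its calling depth. The low percentile therefore did not go with a low pileup. Crk, an adaptor of tyrosine kinase signalling, lay at 24.7, 29.6 and 71.1 against 99.5, 95.9 and 97.3 (limma adjusted p = 0.0231). Pitpna, a phosphatidylinositol transfer protein, lay at 16.4, 52.6 and 17.5 in scramble and at 95.9, 93.8 and 93.5 in acetate, and its change of 65.6 percentile points was the highest of the 717 genes. Kmt5b, a methyltransferase of histone H4 lysine 20, lay at 14.8, 74.3 and 42.4 against 97.8, 95.7 and 98.9. In these genes the acetate libraries were close together near the top of the range, and the scramble libraries were spread out below them.

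Cnot6l, a deadenylase subunit of the CCR4-NOT complex, lay at 12.6, 89.6 and 82.5 in scramble and at 99.8, 98.9 and 99.7 in acetate (limma adjusted p = 0.0396). Aes, a corepressor of the Groucho family, lay at 20.5, 50.7 and 66.5 against 96.5, 99.3 and 97.1, and Ncapg2, a condensin II subunit, at 41.4, 38.3 and 93.4 against 99.1, 99.7 and 98.7. Irf2bpl ranked at 69.4, 37.0 and 53.0 against 97.1, 98.1 and 99.3. Grhl2, a grainyhead factor that maintains epithelial genes, lay at 38.6, 34.7 and 74.3 in scramble and at 95.2, 99.4 and 96.8 in acetate (2.02 ± 0.37 normal-score units, SE, limma adjusted p = 0.0231). Its strongest peak had its summit 1062 bp from the nearest start site. For all 5 genes each acetate library lay above each scramble library.

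Osmr, the oncostatin M receptor subunit of the interleukin 6 receptor family, was the gene at the opposite end of the scale. Its peak at chr15:6872486-6875144 had a fold enrichment of 1.91, 3.63 and 3.33 in scramble and of 13.4, 13.9 and 10.9 in acetate. Fold enrichment is a ratio to the local background. The summit pileups of Osmr, not scaled between libraries, were 62.0, 57 and 49 in scramble and 48, 31 and 56 in acetate. The low ratio in scramble therefore did not go with a low pileup. The percentile was 0.00458, 0.160 and 0.0871 in scramble, the bottom of the ranked promoters, and 9.80, 16.2 and 5.91 in acetate (2.05 ± 0.29 normal-score units, SE, limma adjusted p = 0.0174). In CPT1a knockout without acetate the percentiles were 15.6, 3.96 and 6.40. Both sets of knockout libraries thus lay above the 3 scramble libraries.

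Most of the named genes that ranked lower with acetate lay near the top of the scramble lists, and Cp was an exception. Lmo7, a LIM-domain protein of cell junctions, lay at 95.8, 89.8 and 96.7 in scramble and at 28.8, 32.2 and 30.9 in acetate (2.12 ± 0.27 normal-score units lower, SE, limma adjusted p = 0.0174). Plscr2, a phospholipid scramblase, lay at 97.4, 90.5 and 93.9 against 33.0, 27.6 and 31.8. Mpp6, a membrane scaffold protein, lay at 94.1, 81.4 and 93.0 against 22.3, 25.4 and 27.2. For each of these genes the libraries of a group lay close together and the groups were far apart. Cp, the gene of the copper-carrying ferroxidase ceruloplasmin, lay at 75.2, 57.8 and 73.3 in scramble and at 7.58, 7.35 and 10.7 in acetate (limma adjusted p = 0.0174), and at 2.77, 4.08 and 2.13 without acetate. Its promoter sequence above lies inside the peak of acetate replicate 1.

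Mast4, a microtubule-associated kinase, lay at 99.99, 85.1 and 99.97 in scramble against 69.2, 71.7 and 45.9 in acetate (limma adjusted p = 0.0439). The chromatin remodeller gene Chd2 lay at 99.7, 98.1 and 99.8 against 69.9, 67.2 and 69.3. Ankrd28, a regulatory subunit of protein phosphatase 6, lay at 99.3, 99.1 and 99.3 against 62.3, 77.2 and 67.9. Esd, which encodes esterase D, lay at 98.8, 98.6 and 99.5 against 75.6, 57.8 and 66.2. Ifi204, an interferon-inducible gene of a family with close paralogs, lay at 98.1, 94.6 and 98.3 against 56.3, 60.3 and 41.4, and reads of those paralogs could have been placed at it. None of these 5 genes had ranks that overlapped between the groups.

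**Figure D4:**
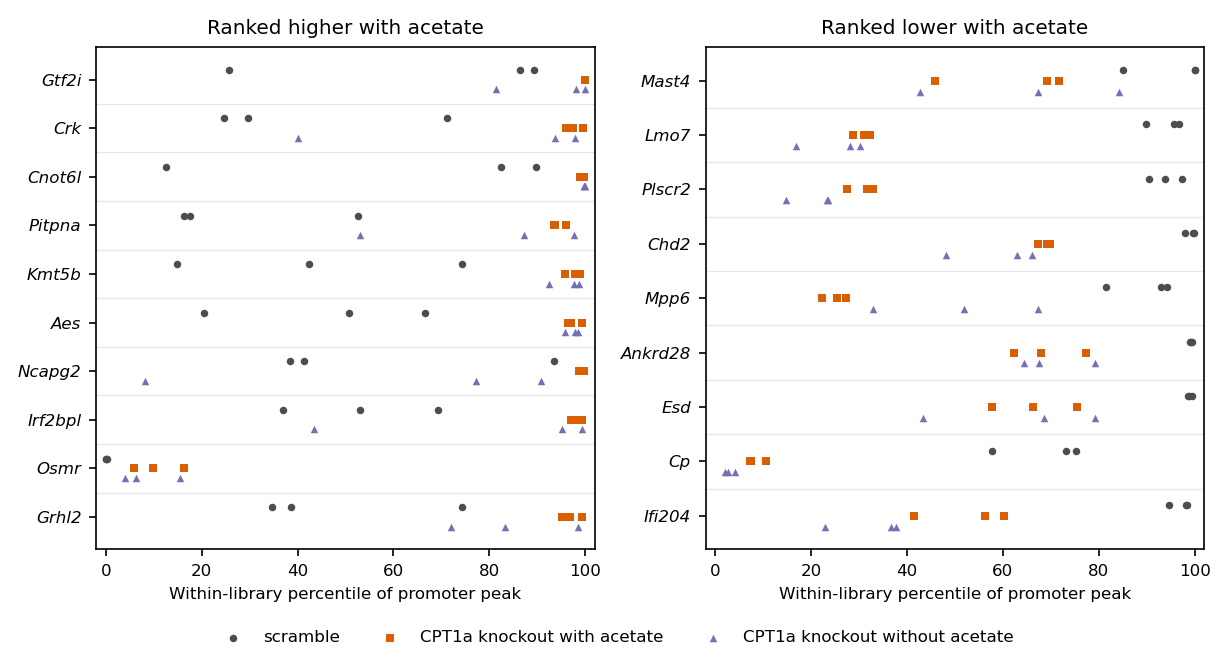
Within-library percentile of the strongest promoter peak (horizontal axis, 0 to 100.0) for the named genes of each direction, 1 point per library and 3 libraries per group. Acetate points (orange) lie to the right of scramble points (dark grey) for genes ranked higher, of which Osmr lies at the left end, and to the left for genes ranked lower, with CPT1a knockout without acetate in violet.

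Promoters of enzymes that handle fatty acids and acetyl-CoA were examined list by list, beside the 6.57% of all genes tested that passed. The lists are short, so counts of 0 or 1 are not read as a difference from that share. Cpt1a, the targeted gene, lay at percentiles 14.5, 40.8 and 28.2 in scramble and 41.2, 59.2 and 74.1 in acetate (limma adjusted p = 0.114), and a promoter mark cannot show whether the coding sequence was edited. Acss2 had its strongest peak at chr2:155516658-155517744, shared with the neighbouring gene Ggt7, and lay at 77.7, 62.3 and 68.1 in scramble against 23.4, 25.4 and 28.4 in acetate. That loss was 43.6 percentile points (1.17 ± 0.24 normal-score units lower, SE, limma adjusted p = 0.0261). Without acetate the Acss2 percentiles were 48.7, 24.6 and 26.9. Acly, the ATP-citrate lyase gene, lay at 39.5, 48.9 and 72.5 against 56.9, 87.1 and 40.8 (limma adjusted p = 0.705), with overlapping groups. Of 18 tested genes of acetyl-CoA supply, 0 ranked higher and 1, Acss2, ranked lower (5.56%). Of 26 tested genes of the carnitine shuttle and β-oxidation, 0 passed in either direction, and their median change was -1.36 percentile points. Within that list Etfa, a subunit of the electron transfer flavoprotein, had the smallest adjusted p, with percentiles of 18.8, 40.4 and 14.0 against 77.9, 31.6 and 92.7 (limma adjusted p = 0.0948), and acetate replicate 2 lay within the scramble range. Of 18 tested PPAR receptor and fatty acid handling genes, 0 passed, and of 34 genes of fatty acid and cholesterol synthesis 1 ranked lower (2.94%). This was Idi1, an isomerase of the mevalonate pathway, at 64.5, 56.3 and 49.7 against 16.5, 19.2 and 22.2 (limma adjusted p = 0.0275).

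Of 77 tested genes of oxidative phosphorylation, 5 ranked higher and 1 lower (7.79%, against 6.57% of all genes tested), with a median change of 2.35 percentile points. Cyc1, cytochrome c1 of complex III, lay at 68.5, 71.5 and 55.0 in scramble and at 96.8, 93.1 and 96.0 in acetate (limma adjusted p = 0.0315). The complex III genes Uqcrh and Uqcrc1 ranked higher as well, Uqcrc1 at 30.3, 26.8 and 24.4 against 70.4, 57.1 and 73.4. Uqcrh shared its peak with Lrrc41. Cox7b, a subunit of complex IV on chromosome X, ranked lower, at 55.1, 54.4 and 59.8 against 13.4, 23.3 and 23.4 (limma adjusted p = 0.0306). Of 23 genes of the tricarboxylic acid cycle, Idh2, the mitochondrial NADP-dependent isocitrate dehydrogenase, ranked higher (20.0, 41.8 and 26.6 against 81.9, 70.4 and 83.0) and Mdh1, the cytosolic malate dehydrogenase, ranked lower (64.5, 54.4 and 62.6 against 24.7, 27.6 and 27.2). Mdh1 shared its peak with Wdpcp, and the called share of the tricarboxylic acid cycle genes was 8.70%. Of 78 mitochondrial ribosomal protein genes, 1 ranked higher and 3 lower (5.13%).

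Acetyltransferases and deacetylases were nearly all called in the 6 libraries. Kat2a had its strongest peak at chr11:100711367-100712583 and ranked higher with acetate, at 6.77, 8.93 and 7.16 in scramble against 26.7, 29.2 and 30.2 (0.87 ± 0.18 normal-score units, SE, limma adjusted p = 0.0270). Without acetate it lay at 36.3, 44.2 and 60.9. Atxn7l3, a subunit of the SAGA deubiquitinase module, lay at 66.1, 52.1 and 47.7 against 86.4, 96.8 and 96.4 (limma adjusted p = 0.0306). These were the 2 of 37 acetyltransferase and partner genes that passed, both in the upward direction, a called share of 5.41% against 6.57% of all genes tested. Ranks did not overlap for 17 of the 37 (45.9%, against 32.0% of all genes), 11 higher and 6 lower, where 14.9% and 17.1% of all genes did so in these directions. The list had a median change of 7.34 percentile points. Of 27 deacetylase genes and their partners 1 passed, Mta3, a subunit of the NuRD complex, at 40.7, 38.5 and 52.0 against 92.5, 78.5 and 95.5 (limma adjusted p = 0.0279).

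Within the NF-kB pathway, 1 of 36 genes ranked higher and 2 ranked lower (8.33%, against 6.57% of all genes tested). Rela, which encodes p65, lay at 47.1, 66.7 and 69.1 in scramble and at 71.1, 90.1 and 73.5 in acetate, and the difference did not pass (limma adjusted p = 0.286). Rel, the gene of c-Rel, ranked lower, at 81.1, 84.3 and 83.0 against 48.7, 52.8 and 46.6 (limma adjusted p = 0.0461). Tnfaip3, the gene of the ubiquitin-editing enzyme A20, fell from 82.6, 79.1 and 91.7 to 48.7, 42.2 and 19.9 (limma adjusted p = 0.0306), and Nfkbia, the gene of IκBα, rose from 57.4, 35.2 and 28.5 to 76.7, 84.0 and 76.8 (limma adjusted p = 0.0485). Vegfa, an angiogenic growth factor induced by hypoxia, ranked higher at 90.0, 96.7 and 93.5 against 52.7, 61.1 and 58.8 in scramble. Of 28 tested NF-kB target genes, 2 ranked higher and 1 lower (10.7%, against 6.57% of all genes tested), with a median change of 3.55 percentile points.

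Of 33 genes of antigen presentation and the interferon response 2 ranked higher and 1 lower (9.09%, against 6.57% of all genes tested). Psmb9, an immunoproteasome subunit, and Tap1, a peptide transporter, share a peak, which lay at 9.95, 21.3 and 14.8 in scramble and at 61.5, 60.9 and 50.2 in acetate (limma adjusted p = 0.0231), so they count as 1 observation. In CPT1a knockout without acetate this peak lay at 3.16, 44.4 and 59.0. Nlrc5, the transactivator of class I genes, ranked lower, at 41.5, 33.0 and 39.3 against 7.69, 5.60 and 2.25 (limma adjusted p = 0.0218).

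Of 20 tested genes of the epithelial-mesenchymal transition 2 passed (10%, against 6.57% of all genes tested). Grhl2 ranked higher and Foxc2, a forkhead factor known from mesenchyme, ranked lower, at 84.7, 80.9 and 72.5 in scramble against 28.5, 28.2 and 7.57 in acetate (limma adjusted p = 0.0231). The summit of the Foxc2 peak lay 3943 bp from its nearest start site. Of 20 mammary identity genes 7 had no promoter peak in any of the 6 libraries, and 0 of the 13 tested genes passed. Epcam, which marks epithelial cells, lay at 11.7, 13.7 and 15.2 against 17.1, 20.2 and 19.6 (limma adjusted p = 0.453). Of 173 developmental transcription factors 53 were called in all 6 libraries, and 1 of these ranked higher and 5 lower (11.3% in all). Sox5, a SOX factor of cartilage and neurons, lay at 74.4, 39.4 and 72.2 against 13.4, 9.72 and 7.29, while Foxk2, a broadly expressed forkhead factor, lay at 37.3, 66.7 and 42.5 against 90.1, 97.3 and 93.6. Of 45 genes of TGF-β, BMP, Wnt and Notch signalling 0 ranked higher and 2 lower (4.44%). Fzd7, a Wnt receptor, fell from 72.7, 58.5 and 63.8 to 7.27, 19.8 and 9.02 (limma adjusted p = 0.0218), and Fst, the activin antagonist follistatin, from 4.07, 3.53 and 5.54 to 0.481, 0.330 and 0.995. Col5a1, a chain of collagen V, was the 1 of 28 matrix and adhesion genes that passed, at 0.830, 5.19 and 1.38 against 17.3, 30.9 and 28.0 (limma adjusted p = 0.0231). Of 29 AP-1 and immediate early genes 0 passed.

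Of 32 tested genes of glycolysis and the hypoxia response 1 ranked higher and 2 lower (9.38%, against 6.57% of all genes tested). Bnip3l, a mitophagy receptor, lay at 68.3, 65.1 and 58.3 in scramble against 12.5, 8.34 and 13.7 in acetate (limma adjusted p = 0.0174). Hif1a, the oxygen-regulated subunit of HIF-1, lay at 92.5, 94.2 and 98.4 against 74.2, 42.2 and 55.7 (limma adjusted p = 0.0306), and Vegfa was the gene of this list that ranked higher. Adm and P4ha2, called in scramble only, belong to the same list, and neither remained so at equal calling depth. Among all genes called in any of the 6 libraries, 29 (0.248%) were called in scramble only. Of 25 NRF2 antioxidant genes 0 ranked higher and 2 lower (8%). Prdx1, a peroxiredoxin, lay at 79.7, 70.6 and 71.1 against 40.6, 25.4 and 8.47 (limma adjusted p = 0.0311), and Gclc, the catalytic subunit of the first enzyme of glutathione synthesis, at 96.8, 89.4 and 93.6 against 60.9, 34.6 and 67.4 (limma adjusted p = 0.0326). The median changes of both lists were -1.81 and -3.47 percentile points. Of 33 genes of the unfolded protein and heat shock response 1 ranked lower, the disulfide isomerase gene Pdia4, at 98.5, 98.8 and 99.3 against 72.7, 61.7 and 82.1.

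Of 45 cell cycle and replication genes 2 ranked higher and 2 lower (8.89%, against 6.57% of all genes tested). Ccne1, cyclin E1, lay at 1.51, 11.0 and 2.51 in scramble against 28.8, 23.3 and 25.5 in acetate (limma adjusted p = 0.0316), and Gins2, a subunit of the replicative helicase, at 32.1, 34.2 and 34.8 against 72.0, 84.4 and 59.8 (limma adjusted p = 0.0461). Rb1, the retinoblastoma gene, whose peak also covers the start of Lpar6, lay at 98.6, 95.1 and 99.3 against 71.3, 69.3 and 38.2. Bub1b, a kinase of the spindle checkpoint, lay at 62.6, 54.4 and 62.9 against 26.0, 8.06 and 14.3 (limma adjusted p = 0.0237). Of 81 tested cytosolic ribosomal protein genes 0 ranked higher and 4, Rps4x, Rpl24, Rps9 and Rplp2, ranked lower, a called share of 4.94%. Ranks did not overlap for 1 gene higher and 15 lower, or 19.8% against 32.0% of all genes. Rps4x lay at 96.3, 89.0 and 93.0 against 54.9, 55.3 and 65.4 (limma adjusted p = 0.0318). Of 304 zinc finger genes named Zfp 8 ranked higher and 17 lower (8.22% in all, against 6.57% of all genes tested). Zfp335 lay at 15.9, 16.4 and 32.3 against 81.7, 77.9 and 75.9 (limma adjusted p = 0.0218), and Zfp317 at 77.5, 59.4 and 80.3 against 26.0, 25.4 and 20.9. Only 3 of 57 clustered protocadherin genes and 3 of 1420 olfactory and vomeronasal receptor genes were called in all 6 libraries, and 0 of them passed. Of 20 markers of immune, endothelial and other lineages 0 could be tested, and 3 were called in any of the 6 libraries.

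Chromosomes did not contribute evenly. On chromosome 13, 5 of 446 tested genes ranked higher and 51 lower, and the median change over its genes was -7.48 percentile points. On chromosome 11, 41 of 921 ranked higher and 18 lower, with a median change of 3.66. The median promoter GC content was 47.4% on chromosome 13 and 52.0% on chromosome 11. With the GC trend removed, chromosome 13 had 4 genes higher and 31 lower and chromosome 11 had 24 higher and 13 lower. Chromosomes 13 and 11 were named after their values were seen, and the difference between chromosomes was not tested.

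The library median of the width of the strongest promoter peak was 2863, 2105 and 2193 bp in scramble and 2137, 1679 and 2214 bp in acetate, with overlapping groups (exact permutation p = 0.5, n = 3 per group). Relative to that median, limma called 152 of 10909 genes (1.39%) at an adjusted p below 0.05, 113 (1.04%) wider and 39 (0.358%) narrower in acetate. The unadjusted p was below 0.05 for 2365 genes (21.7%). Without the centring on the library median 0 genes passed, and 2941 had an unadjusted p below 0.05. Without acetate replicate 1, 2 or 3 the number fell to 3, 1 and 4, and without scramble replicates 1, 2 and 3 it was 251, 234 and 55.

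The 113 wider genes had narrow peaks in scramble, with a median width of 1313 bp against 2387 bp over all genes tested. Some of these promoters were split into more peaks in scramble. Syt17 held 3, 3 and 2 promoter peaks in scramble and 1, 1 and 1 in acetate, Klf16 2, 3 and 4 against 1, 2 and 1, and Tmem8b 3, 4 and 1 against 1, 1 and 1. Syt17, a synaptotagmin-like protein of membrane traffic, had peaks of 275, 222 and 268 bp in scramble and of 1378, 1307 and 1484 bp in acetate (2.70 on the centred log2 scale, limma adjusted p = 0.0205). Arhgef15, a guanine nucleotide exchange factor, had 270, 339 and 200 bp against 1387, 1128 and 1370 bp. Klf16, a Krüppel-like factor with a promoter window of 69.3% GC, had 2230, 631 and 553 bp against 3927, 2871 and 4277 bp (limma adjusted p = 0.0457). These widths did not overlap between groups, and the 113 wider genes had a median promoter GC content of 54.6%. Neurl1a, a RING-domain ubiquitin ligase, had 625, 416 and 222 bp against 1364, 888 and 1870 bp, the leucine-rich repeat gene Podnl1 had 526, 793 and 294 bp against 2148, 1879 and 1610 bp, and Tmem8b had 314, 443 and 248 bp against 1320, 1142 and 1162 bp. The Tmem8b peak is shared with Fam221b.

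The 39 narrower genes had a median width of 4668 bp in scramble and 1939 bp in acetate. Tmem223, whose product takes part in complex IV assembly, narrowed from 8730, 6798 and 7318 bp in scramble to 1848, 855 and 1952 bp in acetate (-2.13 on the centred log2 scale, limma adjusted p = 0.0205). Casp1, the inflammatory caspase, had 1248, 1080 and 1414 bp in scramble and 273, 283 and 296 bp in acetate, and its rank was lower too (14.0, 11.0 and 13.5 against 1.05, 2.23 and 2.42, limma adjusted p = 0.0261). Casp1 was called in 1 of 3 CPT1a knockout libraries without acetate, with a width of 254 bp. Man2b1, a lysosomal α-mannosidase, had 4828, 4472 and 3959 bp against 1279, 956 and 1801 bp, and also ranked lower. Rhoj, a small GTPase, narrowed from 2446, 2405 and 1713 bp to 674, 520 and 991 bp. Tbp, the TATA-binding protein gene, shared its peak with Psmb1 and had 6743, 4104 and 6625 bp against 2629, 1417 and 1811 bp, with its summit 1981 bp from the nearest Tbp start site. Il34, a ligand of the CSF1 receptor, had 6382, 3657 and 5054 bp against 1705, 1143 and 2495 bp. A peak that the caller splits in a library counts as narrower there. With peaks closer than 500 bp merged, 45 of the 152 wider or narrower genes still passed and 131 kept their direction.

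**Figure D5:**
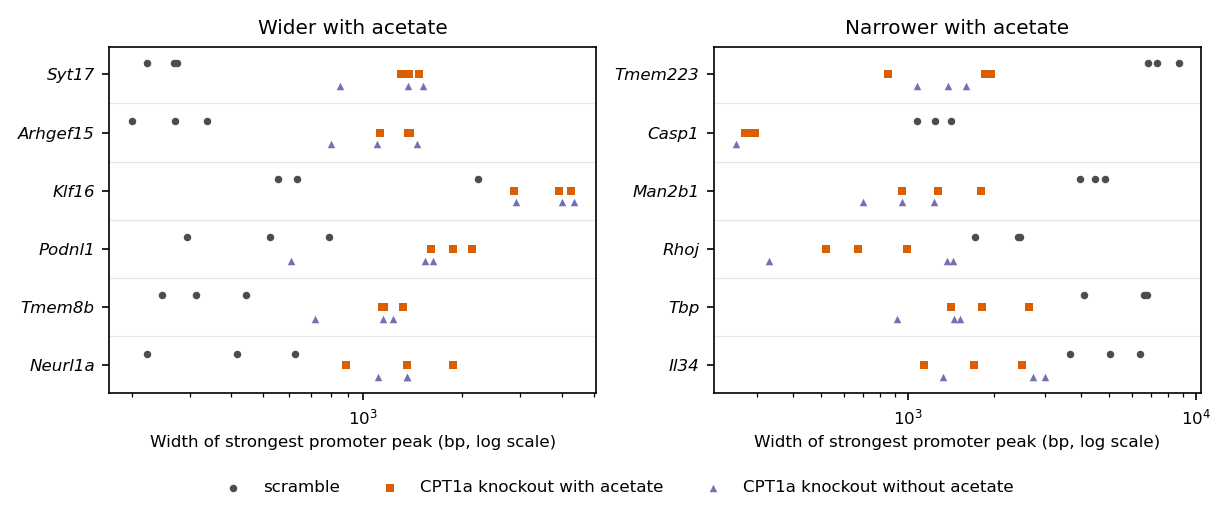
Width of the strongest promoter peak (horizontal axis, bp, log scale) for the 6 named genes per direction, 1 point per library and 3 libraries per group. Acetate peaks (orange) of Syt17 lie at 1307 to 1484 bp and scramble peaks (grey) at 222 to 275 bp, while for Tmem223 scramble lies at 6798 to 8730 bp and acetate at 855 to 1952 bp. Violet points are CPT1a knockout without acetate, in which Casp1 has 1 point.

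Knockout libraries with and without acetate were also set against each other by the same limma test. Among the 10777 genes called in all 12 libraries, 0 (0%) passed an adjusted p of 0.05 and 983 (9.12%) had an unadjusted p below 0.05. A p that misses the threshold does not show that acetate left these promoters as they were. The median percentile of the 273 genes ranked higher was 35.4 in scramble, 81.2 with acetate and 70.4 without it, and that of the 444 genes ranked lower was 74.6, 29.2 and 35.1. Both comparisons share the acetate libraries, so these values are given side by side only. Among the named genes, Ncapg2 lay at 90.8, 77.2 and 8.23 without acetate, below each acetate library, and Mpp6 at 67.2, 32.9 and 52.0, above each acetate library. Neither difference passed (limma adjusted p = 0.313 for Ncapg2 and 0.486 for Mpp6).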

How the data were processed

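H3K9ac ChIPmentation was analysed in 3 scramble and 3 CPT1a knockout plus acetate libraries of 4T1 spheroids, with 3 CPT1a knockout libraries beside them. Groups came from the labels. According to the methods, the authors aligned reads to mm10 with BWA and removed duplicates with Picard, while the labels' processing notes list Bowtie2 and MACS2, so the aligner is not settled. The labels and methods also give different catalogue numbers for the antibody. The authors deposited 1 MACS2 narrowPeak list per library, with no pooling. In these deposited lists column 7 is a ratio, the fold enrichment of the summit pileup over its local background. The other deposited columns are the −log10 p-value and −log10 q-value of a peak and a score derived from the q-value. None of these values is scaled between libraries. The Drosophila spike-in and the 12 inputs were not analysed here, so a change in total H3K9ac could not be seen.

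Peaks on chromosomes 1 to 19 and X were joined to windows of 1 kb on each side of every start site of 21755 protein-coding genes (GENCODE vM21). All 297506 peaks of the 12 lists lay within the chromosome ends of GRCm38. No read depth is stated, so the calling depth was recovered by inverting the MACS2 formulas for pileup and background. The strongest promoter peak by column 7 was ranked within its library, and normal scores were tested with limma 3.58.1 (trend and robust options) in R 4.3.3 with Benjamini-Hochberg adjustment. Widths were tested as log2 values minus the library median. Values per library were compared by two-sided exact permutation over 20 assignments. Named genes were, per direction, the 10 (rank) and 6 (width) with the largest difference among adjusted p below 0.05 and no overlap, the 8 highest-percentile genes called in one group, Cpt1a, Kat2a, Rela, Acss2 and Acly, and up to 4 genes of each of 27 lists. Predicted gene models and genes on the peak of a gene already named were passed over, and 1 gene that met the rule for lower ranks is not reported here. Members, lists and tests were chosen with earlier results of these data known. In CPT1a knockout libraries without acetate, percentiles were taken among the tested genes called there. Same-numbered libraries did not deviate together, and the labels tie no number to a shared culture or day, so the main fits had no replicate block. Read counts were not used here, so no counting error of single peaks is given.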

Additional observations from a re-analysis of the deposited data

How the results depend on the processing

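All 717 genes with a rank call kept their direction under every alternative in which they could be tested, except 2 of 709 with windows of 0.5 kb. Their number was 3153 (1570 higher, 1583 lower, 49.8% higher against 38.1%) when peaks were ranked by −log10 p and 1542 (707 higher, 835 lower) with fold enrichment rescaled to equal depth. It was 394 (139 and 255) on percentiles and 422 (176 and 246) with the GC trend removed. Leaving out 1 library at a time gave 0 to 466 calls, 0 to 188 higher and 0 to 278 lower. The 1 gene called without scramble replicate 3, acetate replicate 1 or acetate replicate 3 was the predicted gene Gm42674, named after its value was seen.

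For width, 0 genes passed without centring (0 wider, 0 narrower). With peaks closer than 500 bp merged, 545 passed (336 wider, 209 narrower), with summed widths 1107 (716 and 391), with the GC trend removed 83 (56 and 27) and with all 12 libraries in the fit 1024 (556 and 468). The wider share of calls was 74.3% in the reported fit, 61.7% with merging and 54.3% with 12 libraries. Leaving out 1 library gave 1 to 251 calls, 0 to 215 wider and 1 to 67 narrower.

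Same-numbered libraries shared only a number: the correlations of their deviations from the group means were -0.00256, 0.0423 and -0.0160. With the replicate block, 386 genes passed for rank (161 higher, 225 lower) and 0 for width (0 wider, 0 narrower), with an unadjusted limma p below 0.05 for 2144 genes.

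At equal calling depth 185 promoters were acetate-only and 12 scramble-only, and with lists of equal length 115 and 15. Of the original genes, 20 of 46 and 7 of 29 remained at equal depth. Equal depth and equal length only remove peaks, so no call could be added in the group without one. Leaving out 1 library gave 46 to 90 acetate-only and 33 to 60 scramble-only promoters. The difference in called promoters was -3.83 to 138.7 genes when 1 library was left out, the negative value without acetate replicate 3. Equal-depth values of other per-library measures were chosen after seeing the data. There the acetate lists had 1741 more peaks away from promoters than scramble and a share of peaks at promoters that differed by -7.10 percentage points, both opposite in sign to the full lists, and the median width of peaks at promoters (bp) also reversed, with a difference of -330.3. It differed by -58.25 to 187.75 with 1 library left out. The cause of these changes was not tested, except that lists at equal depth hold fewer peaks by construction.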
